A study of Mus musculus with 12 samples.

Results

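The transcripts of the adult stomach were described in the 6 wild-type arrays of a series of 12, chosen by the genotype in their labels and set apart from the 6 Car9-/- arrays. The wild-type mice were of the C57BL/6 strain, with 3 males (replicates 1, 2 and 4, aged 10, 12 and 12 months) and 3 females (replicates 3, 5 and 6, aged 8, 12 and 12 months). Labelled cRNA, amplified from total RNA of the stomach of each mouse, was hybridized to 1 Illumina Mouse-6 array without pooling. Per the study's methods the tissue came from the body of the stomach. No treatment was given in the labels. The Car9-/- mice, which lack carbonic anhydrase IX, were 3 males (aged 10, 10 and 12 months) and 3 females (aged 12, 10 and 12 months). They entered only where a second set of mice was needed for the spread or for the sex difference.

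The glandular stomach is lined by surface pit cells, which secrete mucins, trefoil factors and gastrokines, and its glands hold acid-secreting parietal cells, mucous neck cells, zymogenic chief cells and endocrine cells. In the mouse the upper part of the stomach, the forestomach, is covered by a keratinized stratified squamous epithelium like that of the esophagus. The pancreas, mesenteric fat and lymphoid tissue lie against the stomach wall.

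The array holds 46643 probes, and the signal of a probe is its brightness in scanner units without background subtraction. Median signals were 75.6 to 89.6 and the brightest probe of an array reached 45994 to 62693. A probe was called detected where its detection p-value against the negative controls of the array was under 0.01, which held for 18141 to 19390 probes per array. On all 6 arrays 16216 probes were detected, which is 34.8% of the probes, and 24937 were detected on none. The platform annotation gives 1 gene symbol for 32794 probes, which name 19406 genes. A gene was represented by its probe with the highest mean signal, and 10004 genes (51.6%) were detected on all 6 arrays. Pairs of arrays had correlations of 0.946 (mice 2 and 6) to 0.986 (mice 4 and 5). The arrays of mice 1, 2 and 3 were brighter, with medians of 87.9, 89.6 and 88.7, against 75.6, 76.1 and 76.9 in mice 4, 5 and 6, and the labels do not say which arrays shared a chip. With 6 arrays the precision is limited by their number, and the spread between mice includes that between arrays.

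Genes of gastric epithelial cells led the ranking. The brightest gene was Tff1, the trefoil factor of surface pit cells. Its signal was 61525, 51612, 62693, 50582, 49684 and 45994 in mice 1 to 6 (mean 53682 ± 6807, SD, n = 6). Second was Atp4b, the beta subunit of the proton pump of parietal cells, at 57876, 53804, 49838, 49481, 49704 and 42760. Tff1 was the brighter of the pair in 4 of 6 mice, so that their order is within the spread between mice. Next came Pla2g1b, the secreted phospholipase A2 known from pancreatic juice, at 45730 ± 2783. Gsta4, a glutathione transferase, averaged 43824 ± 6474 and Clps, the colipase that assists pancreatic lipase, 43526 ± 3835. None of the 29 pairs of neighbours among the 30 brightest genes kept its order in all 6 mice, while 209 of the 435 possible pairs did. The ranks of the first 30 are thus a band and not a strict order.

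**Figure D1:**
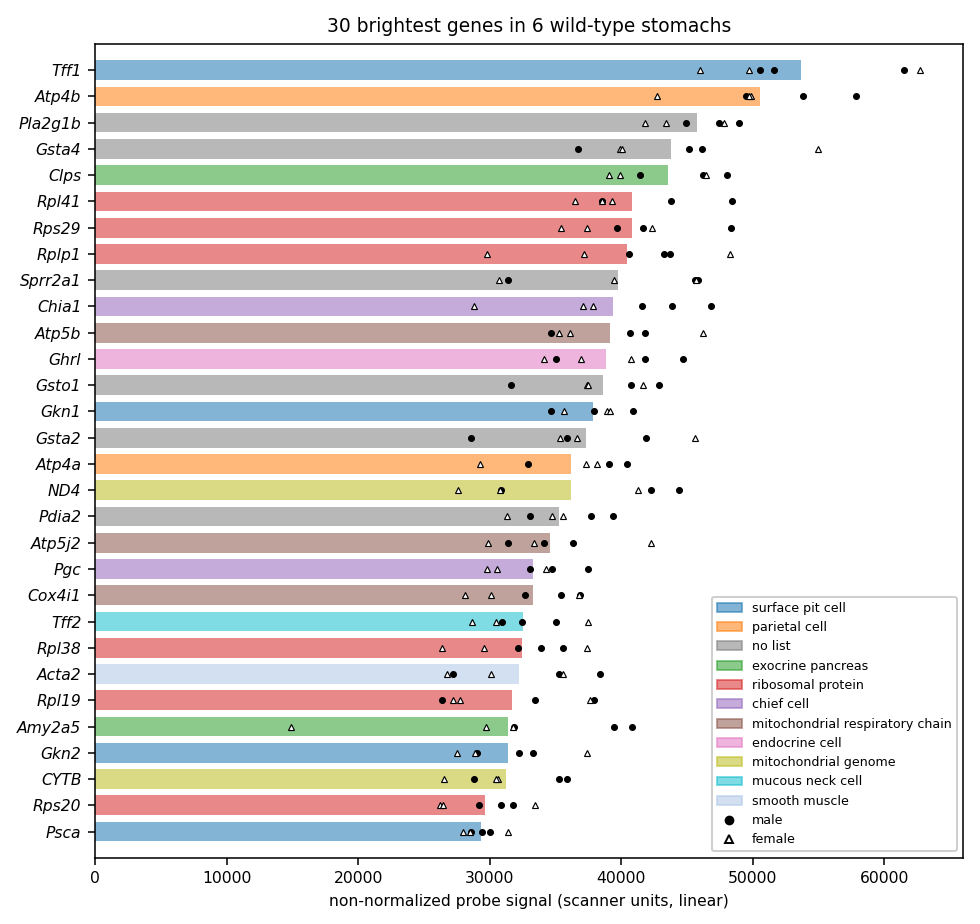
Non-normalized signal of the 30 brightest genes, 1 probe a gene, as the mean of 6 wild-type mice (bars, coloured by the gene list that holds the gene) with males as filled circles and females as open triangles. Amy2a5 has its female of lowest signal at 14873, apart from the other 5 mice at 29739 to 40845.

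Each main cell type of the gastric gland had members among the 100 brightest genes. Pit cells had Tff1, Gkn1 and Gkn2 (gastrokines), Psca and Muc5ac (the gel-forming surface mucin). Gkn1 averaged 37872 ± 2331, Gkn2 31394 ± 3653, Psca 29322 ± 1253 and Muc5ac 28167, with 22098 in the lowest and 39481 in the highest mouse. Parietal cells had both subunits of the proton pump, Atp4a being at 32899, 39055, 29305, 40443, 38159 and 37363 in mice 1 to 6. Chief cells had Chia1, the acidic mammalian chitinase, at 39341 ± 6319, the zymogen Pgc (progastricsin) at 33329 ± 2834, and Cblif, which encodes gastric intrinsic factor, at a mean of 21687. Mucous neck cells had Tff2 at 32520 ± 3246. Ghrl, which encodes the appetite hormone ghrelin, was the brightest endocrine gene at 38872 ± 4165. Acta2 (32199 ± 4869) and Actg2 (mean 27030), the smooth muscle actins, came from the muscle list.

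Genes of the ribosome and of respiration were numerous among the other bright genes. Of the 100 brightest genes, 25 encoded ribosomal proteins, with Rpl41 (40835), Rps29 (40800) and Rplp1 (40453) at their head, 14 encoded nuclear subunits of the respiratory chain or of ATP synthase, such as Atp5b (39129), Atp5j2 (34575) and Cox4i1 (33321), and 4 came from the mitochondrial genome, among them ND4 (36192) and CYTB (31256). A further 36 were in no list, including Sprr2a1 (39780), a small proline-rich protein, the glutathione transferases Gsto1 (38622) and Gsta2 (37324), and the disulfide isomerase Pdia2 (35286). Apoa1, an apolipoprotein known from intestine and liver, stood 42nd by signal with a mean of 27131. Of the summed signal of the 100 genes, those in no list held 34%, ribosomal genes 23.8% and respiratory genes 13.2%, against 6.63% for pit cell genes, 3.47% for chief cell genes and 3.19% for parietal cell genes.

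The signal was spread over many probes. The 10, 100 and 1000 brightest probes held 2.24%, 15.4% and 49.2% of the summed signal, and 27 of the 100 brightest probes have no symbol. The 100 brightest genes held 13.6% of it, between 13.2% and 14% in single mice. The boundary of the 100 was not a gap, since Etfa had a mean of 18049 and Fabp3, just outside, 18043. The signal also depends on how well a probe hybridizes, so that the ranks describe signals and not numbers of transcripts. In 2574 genes with several probes detected on all 6 arrays, the brightest and dimmest of them differed by a median of 2.75-fold, and by at least 10-fold in 360 genes (14%). Acta2 had its brightest probe at 32199 and others at 4531 and 2714, and Rpl41 had another probe at 199.7. For Ghrl the second probe averaged 36450, for Clps 35928 and for Atp4a 30420.

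Promoter sequence was compared between these genes and those that varied between mice, taking windows of 300 bases around each start site in RefSeq (GRCm38.p6), with 250 bases before it. The letters TATAAA, which spell the core of a TATA box, were searched on the sense strand from 40 to 20 bases before the start, and a gene counted if any of its listed starts held them. They stood there in 650 of 27025 genes of the table (2.41%) and in 2.14% of the 8984 matched genes detected on at least 3 arrays. Of the 100 brightest genes 76 were matched and 7 had the motif (9.21%). It was in 0 of 33 matched ribosomal and respiratory genes and in 7 of the other 43 (16.3%), namely Pgc, Amy2a5, Gkn2, 2210407C18Rik, Ckb, Prdx1 and Ppia. On both strands of the whole window, where TATAAA is read as TTTATA on the other strand, 15.7% of all genes and 19.7% of the 100 held it. The next windows, from 50 bases before the start to 50 bases from it onward, belong to 3 bright genes of gastric or digestive function, to the reference gene Ppia, and to the forestomach genes Lor and Krt13 described further on. Capitals mark the searched motif, and Krt13 does not hold it at that place.
Pgc: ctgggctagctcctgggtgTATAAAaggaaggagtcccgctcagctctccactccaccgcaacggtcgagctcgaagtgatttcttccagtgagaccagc
Gkn2: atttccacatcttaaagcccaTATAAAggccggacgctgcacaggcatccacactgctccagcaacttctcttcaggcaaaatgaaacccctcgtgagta
Amy2a5: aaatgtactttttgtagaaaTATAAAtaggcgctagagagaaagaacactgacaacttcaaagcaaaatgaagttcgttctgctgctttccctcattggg
Ppia: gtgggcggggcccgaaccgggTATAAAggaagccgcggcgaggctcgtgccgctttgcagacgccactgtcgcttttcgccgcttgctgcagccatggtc
Lor: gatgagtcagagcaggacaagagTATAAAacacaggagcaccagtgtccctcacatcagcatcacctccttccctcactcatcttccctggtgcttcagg
Krt13: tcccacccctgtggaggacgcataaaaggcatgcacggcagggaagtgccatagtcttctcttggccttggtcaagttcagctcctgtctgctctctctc

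These stretches lie at chr17:47726792-47726891 (plus strand) for Pgc, chr6:87373315-87373414 (plus strand) for Gkn2 and chr3:113258650-113258749 (minus strand) for Amy2a5. The others are chr11:6415817-6415916 (plus strand) for Ppia, chr3:92083093-92083192 (minus strand) for Lor and chr11:100121517-100121616 (minus strand) for Krt13. The motif began 31 bases before the start in Pgc, 30 in Amy2a5, 29 in Gkn2 and Ppia, and 27 in Lor. Ppia, with a small spread between mice, and Lor, with a large one, thus hold the same letters at nearly the same place. These are single genes, and as sets the genes differed. The motif was there in 21.5% of variable genes and in 1.81% of stable genes, as defined and described further on. A match does not show that a factor binds there.

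All 17 genes of the parietal cell list were detected on all 6 arrays. After the pump, the brightest were Ezr (15976), the cytoskeletal linker ezrin of the secretory membrane, Car2 (11897), the cytosolic carbonic anhydrase, and Slc4a2 (11374), the basolateral anion exchanger. Hrh2, the histamine receptor through which acid secretion is stimulated, had a signal of 121.2, near the lowest detected signals of 87.8 to 101.6. Of the pit list 9 of 10 genes were detected on all 6 arrays, of the chief cell list 8 of 10 and of the endocrine list 9 of 15, where 51.6% of all named genes were. Among endocrine genes Sst, which encodes somatostatin, averaged 9001, the granule protein Chga 1717, and Hdc, the histidine decarboxylase of enterochromaffin-like cells, 579. Muc6, the mucin of neck cells, had a signal of 391.6. For comparison 5.15% of all named genes are among the 1000 brightest, while 8 of 17 parietal, 8 of 10 pit, 3 of 10 chief and 2 of 15 endocrine genes are.

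Several lists of other cells were near background. Lymphocyte genes were dim, with 1 of 7 measured T cell genes and 1 of 6 measured B and plasma cell genes detected on all 6 arrays. In the T cell list Cd3d reached 108.9 to 214.4 and Cd3e 84.1 to 164.9. The defining liver gene Alb was detected on 0 arrays, and so was Fabp2, the fatty acid binding protein of enterocytes. Other members of their lists were detected. Of the liver list 3 of 9 measured genes and of the intestinal list 6 of 14 were detected on all 6 arrays, against 51.6% of all named genes. The brightest were Ttr in the liver list and Apoa1 in the intestinal list, each among the 1000 brightest genes. Endothelial genes were detected throughout, 9 of 9, led by Esam (2043), Plvap (1899) and Egfl7 (1601). Cd74, the invariant chain of antigen-presenting cells, averaged 2983, the matrix proteoglycan Dcn 7884 and Col1a1 807.6. Of the adipocyte list 9 of 15 measured genes were detected on all 6 arrays, near the share of all genes, and Plin1, which coats lipid droplets, on 1. The proliferation marker Mki67 had a signal of 246.5 and Top2a 269.9, both detected in all 6 mice.

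The spread between mice was measured as the SD of the log2 signal over the 6 mice, after quantile normalization between the 6 arrays, at 18996 probes detected on at least 3 of them. The median SD was 0.157. A probe was called variable with an SD of at least 1 and stable with an SD under 0.1. Variable were 268 probes (1.41%), of which 89 have no symbol and the rest name 168 genes. Without mouse 2 there were 158 variable probes and without mouse 3 there were 171. By the brightest probe of each gene 166 of 11106 genes (1.49%) were variable. Stable were 4008 probes (21.1%), and 2118 genes (19.1%) by their brightest probe. The thresholds are no gaps, since Thrsp and Cldn4 had probes with SDs of 0.996 and 1.01, and Zfp445 and Eif4e3 probes on either side of the lower limit. As a filter on low signals, the requirement of 3 arrays keeps a gene that is on in 3 mice and off in 3, so that the count of variable probes was 95 among the probes detected on all 6 arrays. In the tissue of whole samples, fewer cells of a type and less RNA per cell cannot be told apart.

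**Figure D2:**
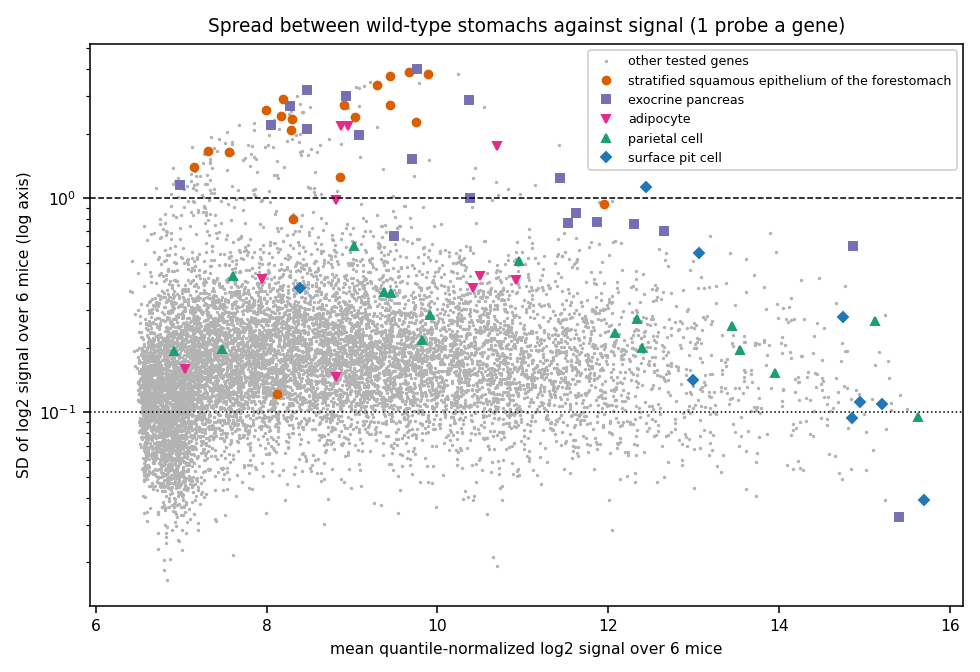
SD of log2 signal over the 6 wild-type mice (log axis) against mean log2 signal, for the brightest probe of each gene detected on at least 3 arrays, with the genes of 5 lists marked. Of the squamous genes 17 of 20 lie above the dashed line at an SD of 1 and of the pancreas genes 12 of 20. Above it lie 0 of 17 parietal genes and 1.49% of all tested genes, and the dotted line is at 0.1.

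The squamous list of the forestomach had the widest range of all lists. Of the 20 tested genes of the squamous list 17 were variable. Of its 23 measured genes 7 were detected on all 6 arrays and 16 on some. Genes such as Krt14, Krt5, Krtdap and Trp63, detected on 3 arrays, entered through mice 1, 2 and 3, where they are high. Their SDs, and in part the list levels of mice 4, 5 and 6, thus rest on background signals. The level of the list (the mean of its genes on the log2 scale, each centred on its mean over the mice) was 1.14, 3.10 and 1.36 in mice 1, 2 and 3. In mice 4, 5 and 6 it was -1.91, -1.85 and -1.84. The basal keratin Krt14 had signals of 11572, 13177, 7074, 76.2, 58.5 and 62.6 in mice 1 to 6 (SD 3.88 on the log2 scale), and was detected in the first 3 of these mice and in none of the others. Its partner Krt5 was at 1483, 1838, 1110, 66.9, 54.7 and 54.5. Lor, which encodes loricrin, the main protein of the cornified envelope, was at 5446, 28476, 7791, 84.2, 82.7 and 88.8. Krt13, a keratin of internal squamous epithelia, had 2886, 18196, 7994, 66.6, 67.6 and 60.1. Krt14 and Krt13 were each detected on 3 arrays. The tissue, labelled as stomach and in the study's methods as its body, held squamous transcripts at high signal in mice 1, 2 and 3.

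Mouse 2 stood out among these 3. Krt10, the keratin of differentiating epidermal layers, had signals of 968.2, 25379, 856.6, 177.2, 189.9 and 160.3, and Krt1, its partner, 276.3, 7460, 465.4, 66.0, 67.2 and 64.8. Sprr3 was at 11297 in mouse 2, with 342.2 in mouse 1, 770.5 in mouse 3 and 57.7 to 60.9 in the other mice. Within mice 1, 2 and 3 the basal keratins Krt14 and Krt5 spanned 7074 to 13177 and 1110 to 1838, and the suprabasal Krt10 856.6 to 25379. By the place of the widest gap in its 6 values, 87 variable probes (32.5%) were high in mice 1, 2 and 3 and 49 (18.3%) in mouse 2 alone. The first pattern also held Lgals7 (galectin 7), Kprp, Rptn (repetin), Krtdap, Asprv1, Lce1b and Lce1c, and the second Serpinb12, Dmkn and Gm94. Mouse 2 had the highest value in 138 of the 268 variable probes. The arrays of mice 1, 2 and 3 also had the higher median signals, and whether the chip had a part in this was not tested. In the deposited signals Dsg3, a desmosomal cadherin of the same list, was at 256.1 to 302.0 in all 6 mice (SD 0.12).

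**Figure D3:**
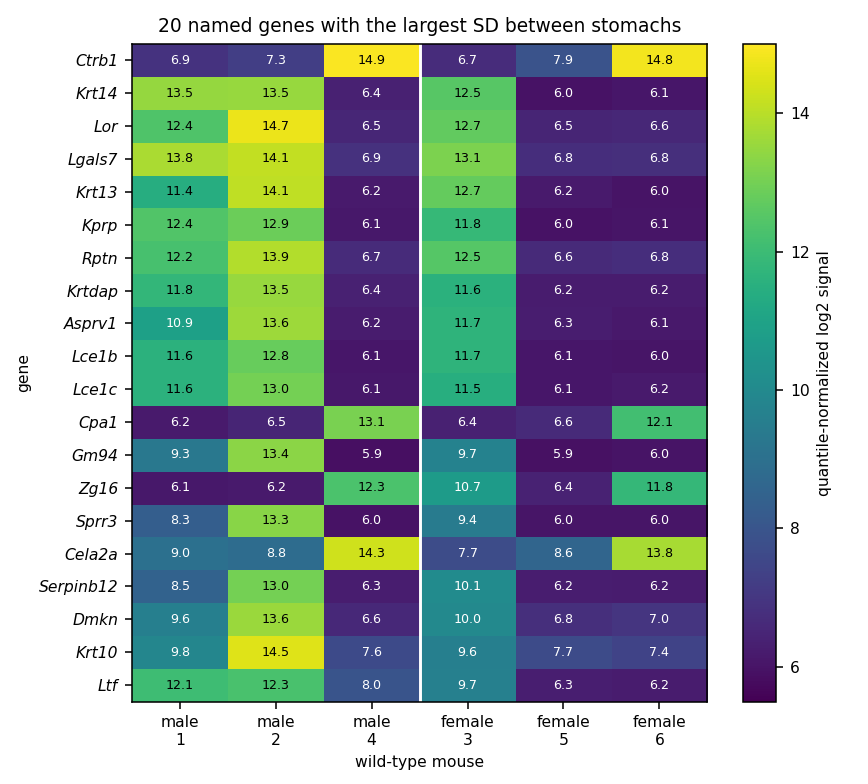
Quantile-normalized log2 signal of the 20 named genes with the largest SD, with males (mice 1, 2 and 4) left of females (mice 3, 5 and 6). Krt14 is at 12.5 to 13.5 in mice 1, 2 and 3 and near 6 in the others, while Ctrb1, Cpa1 and Cela2a are high in mice 4 and 6.

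The smooth muscle level was 0.47, -0.01 and 0.33 in mice 1, 2 and 3 and -0.42, -0.19 and -0.17 in mice 4, 5 and 6. Myh11, the smooth muscle myosin, had signals of 11739, 7844, 8332, 3908, 5176 and 5358. The heat shock list did not divide the mice in this way, at 0.26, 0.10, -0.0033, -0.12, 0.04 and -0.26 in mice 1 to 6. Its member Hspb1, a small heat shock protein, was at 6395, 11123, 5646, 1920, 2064 and 1873. None of the 16 tested smooth muscle genes and none of the 6 tested heat shock genes reached an SD of 1, which is close to the 1.49% of all tested genes. The homeobox genes Irx3 and Irx5, chosen after their values were seen, had 580.1 to 1417 and 594.3 to 1216 in mice 1, 2 and 3, against 92.9 to 262.9 and 77.7 to 262.8 in mice 4, 5 and 6, where mouse 4 was highest for both.

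Digestive enzymes of the pancreas fell into 2 kinds. The first kind was bright in every mouse. Clps had 48067, 46246, 46419, 41408, 39078 and 39937 in mice 1 to 6 and was among the 10 genes of smallest SD in the top 25% of signal (SD 0.03). Amy2a5, a pancreatic amylase, was at 39459, 40845, 14873, 31871, 29739 and 31807, lowest in mouse 3. The second kind was far higher in mice 4 and 6 than in the other mice, in some of which it was still detected. Ctrb1 (chymotrypsinogen B) had the largest SD of all probes, 3.99, with 127.2, 169.7, 111.4, 29544, 228.6 and 26669. Cela2a, an elastase, detected on all 6 arrays, had 548.8, 518.2, 220.9, 18850, 360.0 and 13045, and Cpa1, a carboxypeptidase, 77.97, 96.9, 90.0, 7880, 91.0 and 4040. Between both kinds lay Try4, a trypsinogen, at 8045, 6356, 3267, 10493, 5115 and 7791, and Prss1, the cationic trypsinogen, at 3852, 2865, 1422, 5661, 2282 and 4822. Another probe of Prss1, 3290162, differed from this pattern, with 115.0 to 220.2 in mice 1 to 5 and 2384 in mouse 6 (SD 1.76), and the correlation of both probes over the mice was 0.55.

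Over the pancreas list 12 of 20 tested genes were variable, and its level was -0.94, -0.90, -1.13, 2.06, -0.81 and 1.72 in mice 1 to 6. By the widest gap 28 variable probes (10.4%) were high in mice 4 and 6, among them Ctrl, Spink1, Cpb1 and Reg1. A further 48 (17.9%), of which 42 have no symbol, were high in mouse 6 alone. Those with a symbol included the islet hormone genes Ins2, at 2195 in mouse 6 and 85.3 to 109.1 in the others, and Gcg, at 1631 in mouse 6 and 93.9 to 191.3 in the others. Ppy, another gene of the islet list, was detected in mouse 6 alone, at 198.4. Pdx1, also in that list, was instead highest in mouse 3, as given further on. Mouse 4, with the highest exocrine level, had Ins2 at 85.3, where it was not detected.

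Genes of fat and of lymphoid cells were also highest in mice 4 and 6. Adipoq, the adipocyte hormone adiponectin, had signals of 94.98, 97.5, 603.2, 2724, 373.9 and 1781 in mice 1 to 6, and Scd1, the stearoyl-CoA desaturase, 457.3, 503.6, 2021, 4360, 1369 and 7664. Car3, a carbonic anhydrase abundant in fat, was at 104.3, 105.3, 477.6, 2473, 437.7 and 2568. Of the 10 tested adipocyte genes these 3 were variable, whereas Fasn, Pparg and Acaca had SDs of 0.41, 0.43 and 0.38. The level of the B and plasma cell list was -0.60, -0.49, -0.71, 1.20, -0.27 and 0.87, with Mzb1 at 603.5 in mouse 4, 755.7 in mouse 6 and 93.2 to 182.2 in the others. Macrophage and antigen-presenting cell genes had a range of 1.07 over the mice, and 0 of 11 were variable, where 1.49% of all tested genes were. Cd74 was at 4117 and 3647 in mice 4 and 6 and at 1807 to 3407 in the others. Zg16, a secretory granule lectin of pancreas and intestine, was at 74.3, 78.5, 1903, 4529, 78.3 and 3319.

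A set of genes had its highest deposited signals in mouse 3, and several of them were also higher in mouse 6, or in mice 5 and 6, than in mice 1, 2 and 4. Gast, which encodes gastrin, the hormone of antral G cells, had a signal of 4076 in mouse 3 and 518.2 in mouse 6, and was not detected in the other 4 mice (67.9 to 80.8). Since it was detected on 2 arrays it was not among the tested probes. Pdx1, a transcription factor of antrum, duodenum and pancreas, was at 299.0 in mouse 3, 109.2 in mouse 6 and 66.5 to 84.7 in the others. The following genes were chosen after their values were seen. Clca1, a goblet cell secretory protein, was at 5852 in mouse 3 and 172.1 to 579.0 in the others, and Krt7 at 12201 against 1002 to 2683. Nkx6-3, a homeobox gene of the distal stomach, had 63.6, 71.5, 1275, 62.0, 206.8 and 522.6, and the gastrokine Gkn3 1755, 3433, 11765, 4410, 9166 and 10623 in mice 1 to 6. After quantile normalization Gkn3 was highest in mouse 6, at a log2 signal of 13.5, with 13.29 in mouse 3 and 13.26 in mouse 5. The muscle actin Acta1 was at 1749 in mouse 3 and 83.9 to 99.6 in the others. Chia1 was lowest in mouse 3, at 28822 against 37089 to 46848, and so was the enzyme gene Cel, at 469.1 against 1201 to 2952.

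**Figure D4:**
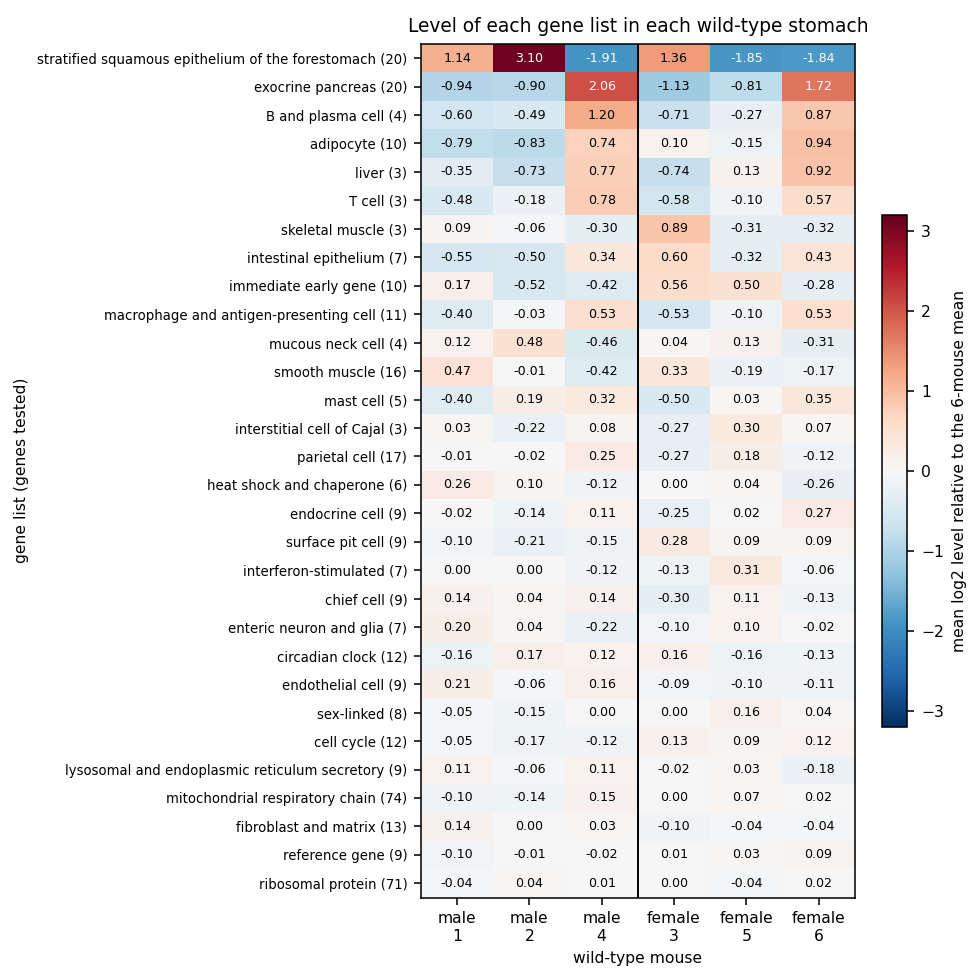
Level of each gene list with at least 3 tested genes in each wild-type mouse (mean log2 signal of its genes, each centred on the 6-mouse mean), males left of females and lists ordered by range. Squamous and pancreas lists span 5.02 and 3.19, while the ribosomal list spans 0.08.

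The lists of the gastric gland varied less than the squamous and pancreas lists. Over the mice the level of the parietal list had a range of 0.52, the chief cell list 0.44, the endocrine list 0.52 and the pit list 0.49. The mucous neck cell list had a wider range of 0.94, and the ribosomal list one of 0.08 (0.17 with each array scaled to its median). The median SD was 0.14 for pit, 0.25 for parietal, 0.28 for chief, 0.37 for neck and 0.38 for endocrine genes, against 0.162 for all tested genes. Gkn3 was the variable gene among the 9 tested pit genes (SD 1.12), Bpifb1 among the 4 neck cell genes (SD 1.51, 198.2 in mouse 4 to 3837 in mouse 2), and Gcg among the 9 endocrine genes. None of the 9 chief and 17 parietal genes was variable, which is close to the 1.49% of all tested genes. The clock output gene Dbp was at 845.9, 3434, 4207, 2655, 894.5 and 803.7 (SD 1.04), while Per1 had an SD of 0.13. The immediate early gene Fos was at 1105, 325.6, 2773, 353.4, 2055 and 537.9 (SD 1.27) and Egr1 at 1196, 519.8, 1373, 521.8, 2373 and 546.9. The labels give no hour of sampling.

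Among bright genes the smallest SDs were those of Rbm42, an RNA-binding protein (SD 0.02, signals 1490 to 1866), Josd1 (0.02), Cdk2ap1 (0.03), Clps, Ecpas (0.03), Ssna1 (0.03), Riox1 (0.04), Arl2 (0.04), Gps2 (0.04) and Ghrl (0.04). At their other probes Ghrl had an SD of 0.20, above the median of all probes, and Clps one of 0.11. Quantile normalization gives the first ranks of all arrays the same few values, which narrows the SD of the brightest genes. Tff1, ranked 1 or 2 on each array, has log2 values of 15.71 or 15.64 only, while its signals span 45994 to 62693. Low signals also lie close together, and 1751 of the 4008 stable probes are in the lowest 25% of signal, against 611 in the highest 25%. Of the genes often used as references, Ppia had an SD of 0.05, Gapdh 0.13 at its brightest probe and 0.14 to 0.23 at others, Hprt 0.20, Actb 0.25 at its brightest probe and 0.49 to 0.59 at others, and B2m 0.32.

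The other probes of variable genes mostly followed the same mice. Each gene was entered by its probe of largest SD, so that a smaller SD at the other probe is fixed by this choice. In 26 variable genes with another tested probe, the log2 values of both probes over the 6 mice had a median correlation of 0.98, as a description over mice that share all other properties of the array, with 18 above 0.9. The median SD of the other probes was 0.945, and 10 of these 26 also had an SD of at least 1. Rptn had SDs of 3.44 and 2.32 at its probes, and Chil4 1.995 and 1.993. In 6 genes the other probe varied far less, namely Hoxc8 (2.31 and 0.06), Hoxc6 (1.38 and 0.11), Serpina12 (2.04 and 0.11), Xrcc1 (1.06 and 0.15), Dst (1.499 and 0.29) and Tfap2c (1.14 and 0.31), and the correlation was -0.10 for Hoxc6 and -0.32 for Xrcc1. For 221 stable genes in the top 25% of signal the median correlation was 0.249. These were chosen for an SD under 0.1, which leaves little spread for their probes to share, so that this value is no control for the variable genes. The 6 Car9-/- arrays, normalized apart, had 255 variable probes of 19672 tested (1.3%), and 181 probes were variable in both genotypes, which is 67.5% of those of the wild-type arrays and 71% of those of the Car9-/- arrays. Ctrb1 had an SD of 0.71 in Car9-/- mice and Krt14 one of 3.43. TATAAA stood 40 to 20 bases before the start in 26 of the 121 variable genes with a promoter in the table (21.5%), among them Lor, Krtdap, Sprr3, Krt10 and Ivl, and in 31 of 1717 stable genes (1.81%). Neighbouring genes of 1 family, such as those of late cornified envelope proteins, count separately in this share.

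Males and females were compared as the division of the wild-type mice that the labels give, and limma called 3 probes. Higher in males were 2 probes (0.0105%) and lower 1 (0.00526%), at an adjusted p under 0.05 over 18996 probes. With 3 mice per sex, 1319 of the 18996 probes had an unadjusted p under 0.05 from limma. Where no probe differs, a share of about 0.05 of the probes passes this limit by chance. Eif2s3y, a translation factor gene on the Y chromosome, had signals of 398.9, 448.7 and 397.7 in males 1, 2 and 4 and of 64.5, 66.9 and 57.6 in females 3, 5 and 6, where it was not detected. It entered the test through its detection in males, and the male mean was at least 4.30-fold above the lowest signals of detected probes in females. The fitted difference on the log2 scale, which rests on background signals in females, was 2.67 (standard error 0.11, adjusted p = 0.0026 from limma). Xist, the RNA of the inactive X chromosome, was at 143.4, 137.3 and 120.3 in males and 990.6, 1433 and 1165 in females (difference -3.21, standard error 0.20, adjusted p = 0.0087 from limma). Both genes, which were called by a fit to these labels, matched the sex on the label in 6 of 6 mice. Not all genes listed as sex-linked did so. The probe of Uty was detected in 3 of 3 males and 2 of 3 females, with a difference of 0.09 (adjusted p = 0.944 from limma). Xist did not pass without mouse 1, 2, 4 or 6 (adjusted p of up to 0.16 from limma), and without mouse 1, 2 or 4 Eif2s3y was detected on 2 arrays and was not tested.

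The third gene was not on a sex chromosome list. Slc5a8, a sodium-coupled transporter of short-chain fatty acids and lactate, was at 709.2, 546.3 and 443.2 in males 1, 2 and 4 and at 114.8, 100.1 and 87.7 in females 3, 5 and 6, with no overlap. In females Slc5a8 lay near the lowest detected signals of 87.8 to 101.6 and was detected in 2 of 3, so that the fitted difference rests in part on signals near background. Another probe of Slc5a8, 4070139, was detected on fewer than 3 wild-type arrays and was not tested. At the tested probe the difference was 2.41 (standard error 0.15, adjusted p = 0.0087 from limma). With a mouse left out it was 2.26 to 2.49, and the call was lost without mouse 2, 4, 5 or 6 (adjusted p of up to 0.157 from limma). In the Car9-/- arrays the tested probe had signals of 80.1, 97.3 and 96.5 in males, where it was not detected, and 129.9, 133.4 and 83.8 in females, so that the male signal of the wild-type mice was not seen there. The difference between the genotypes was not tested. Eif2s3y differed by 2.64 and Xist by -4.15 in the Car9-/- mice, both past the threshold (adjusted p = 0.0043 from limma for each).

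**Figure D5:**
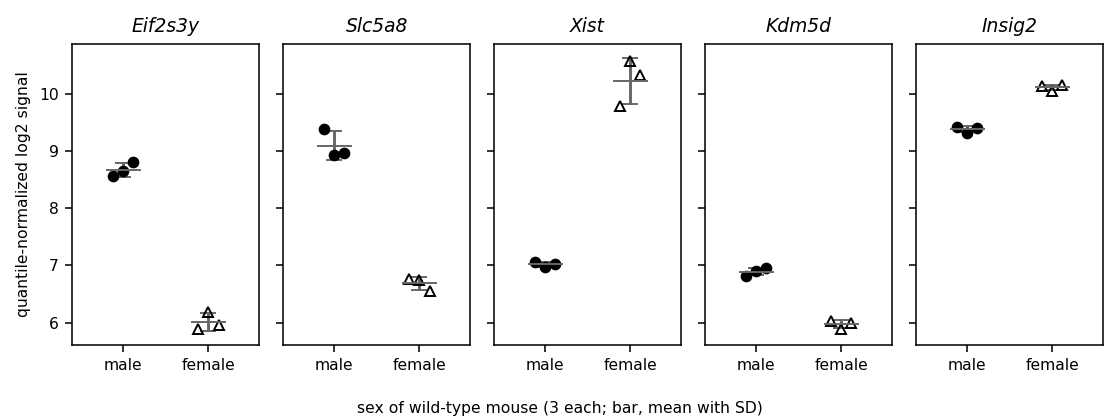
Quantile-normalized log2 signal in 3 male (filled circles) and 3 female (open triangles) wild-type mice for the 5 named genes of smallest p, with the mean and SD as bars. Eif2s3y, Slc5a8 and Kdm5d are higher in males without overlap, and Xist and Insig2 lower, of which Eif2s3y, Slc5a8 and Xist pass the threshold.

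The next 2 named genes did not pass. Kdm5d, a histone demethylase gene on the Y chromosome, had signals of 114.1 to 131.8 in males and 54.9 to 71.3 in females, where it was not detected, so that it entered the test through the males. The male mean was at least 1.25-fold higher, and the fitted difference was 0.93 (standard error 0.08, adjusted p = 0.087 from limma). Insig2, a regulator of sterol synthesis, had a difference of -0.73 (standard error 0.08, adjusted p = 0.16) and 0.14 in the Car9-/- mice. Nkx6-3, Gkn3 and Cybrd1, whose widest gap set mice 3, 5 and 6 above the others, the females, had differences of -3.02, -1.83 and -2.28 with adjusted p of 0.33, 0.39 and 0.33 from limma, and differences of 0.61, 0.75 and 0.39 in Car9-/- mice. Nkx6-3 was detected in 0 of 3 males and entered the test through the females, whose mean was at least 5.54-fold higher, so that its fitted difference rests on background signals in males. Of 30 gene lists compared between the sexes by a two-sided exact permutation test, 5 reached p = 0.1, the smallest that 3 against 3 mice allow, with an adjusted p of 0.6. One of them, the pit list, had a level of -0.15 in males and 0.15 in females. Squamous and pancreas lists had levels of 0.78 and 0.07 in males and of -0.78 and -0.07 in females, with exact p of 0.7 for both.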

How the data were processed

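Stomach RNA of 6 wild-type mice, 3 males and 3 females, was measured on 1 Illumina Mouse-6 array per mouse, and samples were grouped by the genotype and sex in the labels. The authors read the arrays with BeadStudio and deposited the signal intensity of 46643 probes without normalization or background subtraction, with a detection p-value for each probe. The authors also deposited log2 values that were quantile-normalized over all 12 arrays. Here signals were ranked as deposited, and for the spread and the sex test their log2 values were quantile-normalized over these 6 arrays alone. The same step over 12 arrays differed from the deposited log2 values by at most 0.0224.

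A probe entered these steps if 3 or more of the 6 arrays detected it at 0.01. The sexes were compared by limma 3.58.1 (linear model, empirical Bayes) under R 4.3.3 with Benjamini-Hochberg adjustment at 0.05, which was tested on simulated data. P-values measure the spread between 3 mice per sex. Tables and figures were made with python 3.11.15, pandas 2.3.3 and matplotlib 3.10.9. A probe with no symbol (13794) or several (55) was left unnamed. The alternatives were other detection limits, other normalizations (over 12 arrays, scaling to the array median, neqc with an offset of 16, the authors' values), the mean over a gene's probes, all probes or those detected on all 6 arrays, the median absolute deviation, other SD limits, age as a covariate, array weights, an intensity trend, and each mouse left out.

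The text names the 30 brightest genes, the first 2 and up to 4 brightest genes of each list, the 20 named genes of largest SD, the 10 of smallest SD in the top 25% of signal, the genes passing the sex test or the 5 of smallest p, and reference genes. Others are named as examples of a pattern. The lists and this rule were chosen with earlier results of these data known.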

Additional observations from a re-analysis of the deposited data

Results flagged for a closer look

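Of 97 results examined (levels of 30 lists and log2 signals of named genes), 9 had 1 mouse far from the other 5, with a gap to the nearest mouse that exceeded Dixon's critical value for groups of 6. Chance flags about 1 in 20 groups. In mouse 3 Amy2a5 was low, at a log2 signal of 13.65 against 14.99 to 15.21 in the others, and so was Chia1, at 14.67 against 15.25 to 15.41. Gsta4 was high in mouse 3, at 15.64 against 15.28 to 15.41, and the skeletal muscle list had a level of 0.89 there against -0.32 to 0.09. In mouse 2 Krt10 was at 14.54 against 7.42 to 9.85, and Ghrl at 15.31 against 15.21 to 15.24. Cox4i1 was at 15.11 in mouse 4 against 14.97 to 15.02. Ssna1, among the most stable genes, was at 9.46 in mouse 1 against 9.54 to 9.56. The interferon-stimulated list had a level of 0.31 in mouse 5 against -0.13 to 0.00 in the other mice, with Usp18 at 305.9 against 147.6 to 198.8 in the deposited signals.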

How the results depend on the processing

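The number of probes detected on all 6 arrays was 15818 to 17654 with other limits of the detection p, and 16272 to 16483 on the other 5 arrays with a mouse left out. The list of the 100 brightest genes shared 86 genes with that from the mean over a gene's detected probes and 97 to 100 with the other alternatives (97 to 99 with a mouse left out). Their share of the summed signal was 15.4% with neqc, 13% with the authors' values and 12.7% with the mean over probes, and 13.5% to 13.7% with a mouse left out. Variable probes numbered 95 among those detected on all 6 arrays, and 158 to 270 with a mouse left out, the low counts being 158 without mouse 2 and 171 without mouse 3. Stable probes numbered 1353 with neqc, 19723 over all probes, 6481 by the median absolute deviation, 8884 with an SD under 0.15, and 3989 to 4839 with a mouse left out. Probes higher in males numbered 0 among those detected on all 6 arrays, where Eif2s3y and Slc5a8 are not included. With a mouse left out they numbered 0 to 2 (0 without mouse 2 or 4, 1 without mouse 1, 5 or 6), and probes lower in males 0 to 1 (0 without mouse 1, 2, 4 or 6). Without mouse 1, 2 or 4 Eif2s3y was detected on 2 arrays and was not tested. The adjusted p of Slc5a8 was 0.0265 to 0.157 and that of Xist 0.000951 to 0.16 with a mouse left out. Kdm5d passed with neqc, over all probes, with array weights and with an intensity trend (adjusted p = 0.00909 to 0.0387 from limma). No direction changed for the 5 genes named in the sex comparison. The SD of each of the 20 named variable genes stayed at 1 or more under the alternatives run. The range of the pit list over mice was 0.30 without mouse 3, that of the neck cell list 0.58 without mouse 2, of the skeletal muscle list 0.40 without mouse 3 and of the interferon-stimulated list 0.14 without mouse 5. No paired analysis was possible because males and females of the wild type carry different replicate numbers and no pair of groups compared shares any.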
